A study of Mus musculus with 11 samples.

Results

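Solute carriers are membrane proteins that move amino acids, sugars, ions, metals, nucleotides and vitamins across the plasma membrane and the membranes of organelles. The genes described here share the symbol prefix Slc followed by a family number. Genes under other prefixes, such as Slco, are not among them. Grouped as adaptors and other proteins named after carriers were 4 probe sets, those of Slc4a1ap, Slc9a3r1, Slc9a3r2 and Slc66a2. Whether Slc66a2 is itself a carrier was not examined. The 163 probe sets described here are those annotated to 1 gene of this prefix, without Slc1a1, Slc1a2, Slc2a1, Slc4a2, Slc32a1 and the families Slc6a and Slc18a, a choice that left out 22 of 185 such probe sets. They stand for 134 genes of the 8252 genes named on the array, among 12488 probe sets in all. A filter on the mean log2 signal over all 11 brains passed 101 of the 163 probe sets, for 90 genes, and 7453 probe sets of the whole array.

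In the brain, carriers of the plasma membrane supply neurons and glia with glucose and amino acids, clear transmitters from the synapse and set the chloride and bicarbonate gradients on which inhibition and pH depend. Carriers of the inner mitochondrial membrane, the Slc25 family, exchange ADP for ATP and pass metabolites between cytosol and matrix. Further families load zinc into vesicles, bring nucleotide sugars into the Golgi apparatus or take up choline, iron, copper and fatty acids.

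The brains came from 5 mice with both copies of Chrnb4 disrupted, the gene of the β4 nicotinic receptor subunit (an ion channel part gated by acetylcholine), and from 6 wild-type littermates, to compare mutants with littermate controls. All mice were untreated and of strain C57BL/6J, and each gave 1 array of whole-brain RNA. Null 1 and null 2 were males of 9 weeks, null 3 was a female of 7 weeks, and null 4 and null 5 were females of 8 weeks. Wild-type 1 (9 weeks), 2 (8 weeks), 4 and 6 (both 6 weeks) were males, and wild-type 3 (7 weeks) and wild-type 5 (6 weeks) were females. The mouse numbers of wild-type 4, 5 and 6 carry the letters LT, and all others carry B4. LT numbers and an age of 6 weeks thus occur only among wild-type mice. The mutation is carried in every cell of the animal, and the labels do not say how it was made. Chrnb4, the disrupted gene, has no probe set named for it in the annotation used, so the genotype labels were not checked against it.

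All 11 arrays had a trimmed mean signal of 150.1, and precision is limited by how many arrays there are. The 2 male null brains stood apart. Their first principal component scores were 47.2 and 49.2, against -16.3 to -2.03 in the other 9 brains. Their ratio of 3′ to 5′ signal for Gapdh, a measure of RNA and labelling quality, was 0.859 and 0.798, against 2.19 to 3.58 in female null and 3.57 to 5.92 in wild-type brains. A higher ratio means less 5′ signal for the same 3′ signal, and the male null brains had the lowest ratios. Leaving them out thus keeps the arrays with the higher ratios. The part of this ratio in the differences below was not tested apart from a fit with the ratio as a covariate, and within males the ratio and the genotype cannot be told apart. Most genotype results are therefore also given without the male null brains. This leaves 3 female null brains and sets them against the 2 female wild-type brains. Among females the ratio was also lower in null (2.75, 2.19 and 3.58) than in wild-type brains (3.91 and 3.81). Ratio and genotype thus cannot be told apart in that fit either. Markers of brain cells (Snap25, Mbp, Aldoc and others, 8 of 9 named past the filter) summed to 13755 to 15915 in null and 12551 to 14781 in wild-type brains, so the labelled tissue was borne out. None of these markers was at 0. Camk2a alone lay under the filter.

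No solute carrier passed the genotype test over all 11 brains. The count was 0 of 101 at an adjusted p under 0.05 (limma with sex as a covariate, Benjamini-Hochberg over 7453 probe sets), against 2 of 7453 (0.0268%) over the whole array. There were 20 carriers (19.8%) whose p was under 0.05 before adjustment, with 16 positive and 4 negative differences, against 23.1% of all probe sets (13.4% higher, 9.69% lower). No carrier had null values that lay wholly above or wholly below the wild-type values, a pattern found in 0.59% (above) and 0.496% (below) of all probe sets. The median log2 difference, null minus wild-type, was 0.09 over the carriers and 0.03 over all probe sets tested. In whole-brain RNA, fewer cells of a type and less RNA per cell cannot be told apart. The direction of this summary rested on scaling. Of the carriers under an unadjusted p of 0.05, 10 were higher and 6 lower after quantile normalization, and 7 were higher and 11 lower after centring on array medians, which moved the median of all probe sets to -0.15 and that of the carriers to -0.09.

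The count of 0 also rested on 2 female wild-type brains. Without wild-type 3, 3 carriers passed (Slc25a5, Slc22a18 and Slc35e4), against 195 of 7453 probe sets (2.62%). Without wild-type 5, 12 passed (Slc2a3, Slc9a8, Slc12a4, Slc22a12, Slc25a5, Slc25a39, Slc25a45, Slc30a5, Slc35c2, Slc35e4, Slc39a7 and Slc44a1), against 877 (11.8%). Without each of the other 9 mice in turn the count stayed at 0. Without both male null brains it was 0 of 101 and 0 of 7453, with 9 carriers (8.91%) below 0.05 before adjustment, 4 with positive and 5 with negative differences, against 3.54% of all probe sets (2.17% positive, 1.37% negative).

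**Figure D1:**
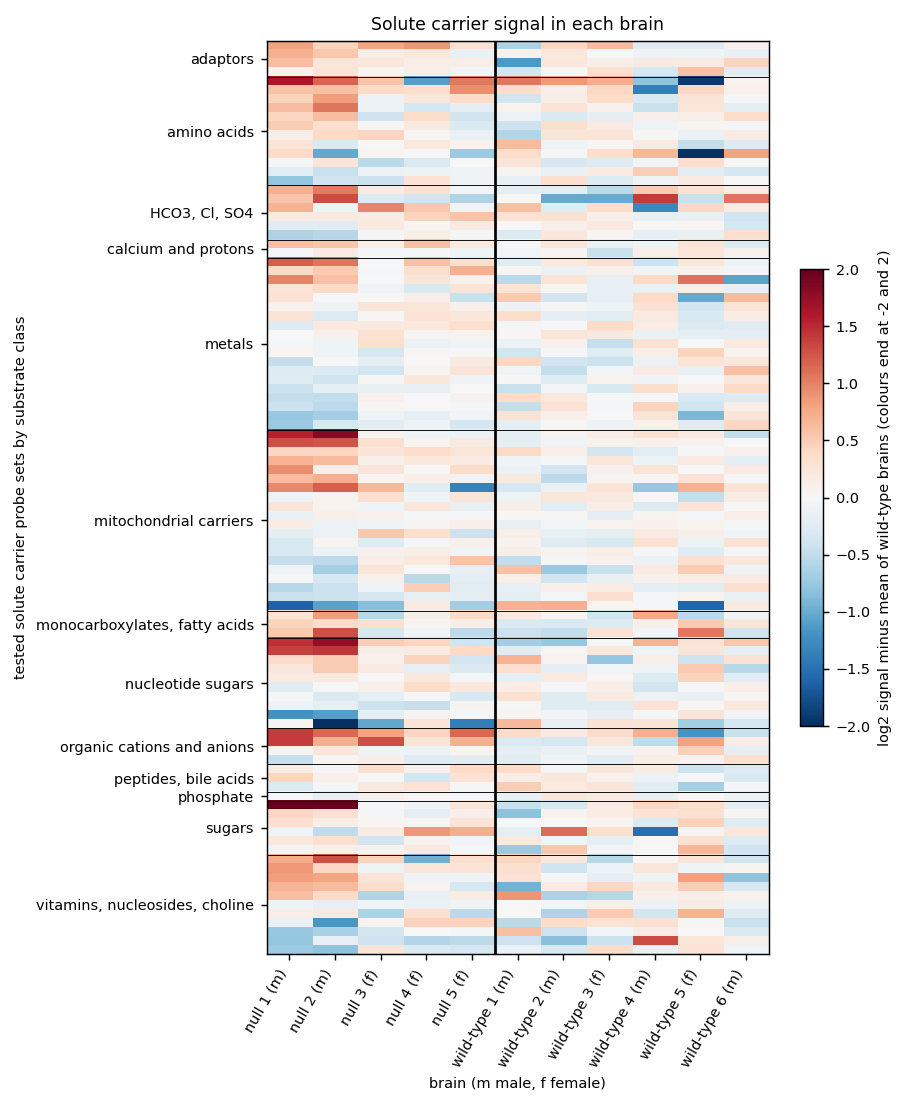
Signal of the 101 tested solute carrier probe sets (rows, grouped by substrate class) in each of the 11 brains (columns, 5 null left and 6 wild-type right), as log2 signal minus the mean of the wild-type brains. The strongest colours stand in the first 2 columns, the male null brains, while the 3 female null columns are paler.

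Slc44a1, Slc25a39, Slc22a18 and Slc9a8 are examples of differences with the same sign in both sexes, and none of them passed the threshold over all brains. The sign was shared by 44 of 101 carriers (43.6%), against 49.3% of all probe sets. It was also shared by Slc25a5 (100618_f_at), Slc35e4 and Slc39a7, described below, whose differences were far larger in males. Slc44a1 (97425_at), a choline transporter, had signals of 114, 108, 222.9, 153.6 and 149.5 in null brains 1 to 5, against 174, 150.7, 244.1, 171.4, 227.7 and 180.4 in wild-type brains 1 to 6. The lowest values were those of the male null brains, and female null 3 and null 4 lay inside the wild-type range. Null brains averaged 149.6 ± 45.8 (SD, n = 5) and wild-type brains 191.4 ± 36.3 (SD, n = 6), a log2 difference of -0.53 (SE 0.14, limma adjusted p = 0.0896). Without the male null brains it was -0.45 (SE 0.20, limma adjusted p = 0.999).

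Slc25a39 (100041_at), a mitochondrial carrier needed for glutathione import into the matrix, had signals of 423.5, 428.2, 459, 518.2 and 503.8 in null brains, against 502.1, 565.9, 732.9, 563, 604.7 and 524.2 in wild-type brains. Null 1, null 2 and null 3 lay below every wild-type brain, and null 4 and null 5 overlapped the lowest wild-type values. Over all brains it differed by -0.38 on the log2 scale (SE 0.11, limma adjusted p = 0.0955). Without the male null brains it was -0.43 (SE 0.15, limma adjusted p = 0.999). That value rests on female wild-type signals of 732.9 and 604.7, the highest of the wild-type brains. Slc25a39 is also known for a role in haem synthesis of red cell precursors. Red cell markers (4 named, 2 past the filter, none at 0) summed to 2197 and 2211 in the male null brains, against 2369 to 6097 in the other 9, mostly Hba-a1. Alas2, the other marker past the filter, reached higher in null (33.5 to 56.7) than in wild-type brains (14.8 to 49.1). The part of these markers in the Slc25a39 difference was not tested.

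Slc22a18 (102861_at), a member of the organic cation family from an imprinted region, went the other way. Its signals were 62.3, 52.5, 41.3, 31.9 and 52.5 in null brains, against 30.3, 26.7, 30.3, 38.6, 10.4 and 17.4 in wild-type brains. Only wild-type 4 overlapped the null range. Over all brains it differed by 1.14 on the log2 scale (SE 0.32, limma adjusted p = 0.0976), and within males by 1.07. Without the male null brains, which is the comparison within females, it was 1.21 (SE 0.51, limma adjusted p = 0.999). That value rests on female wild-type signals of 30.3 and 10.4. Wild-type signals of this probe set lay around the filter of 25.8. Slc9a8 (104101_at), a sodium-proton exchanger of the Golgi and endosomes, had 201.3, 194.5, 143.3, 197.5 and 150.3 in null brains, against 129.4, 156.3, 119.8, 124.5, 159.8 and 109.6 in wild-type brains, a log2 difference of 0.43 (SE 0.16, limma adjusted p = 0.14) that was 0.23 without the male null brains.

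**Figure D2:**
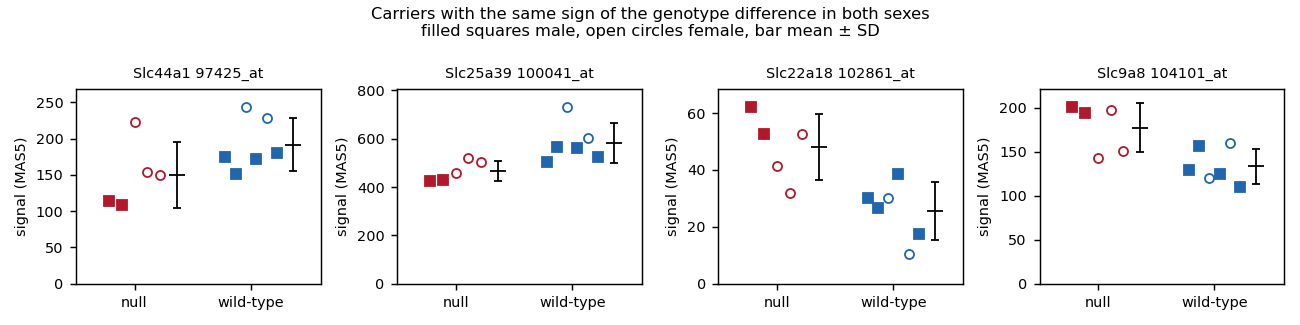
Signal of Slc44a1, Slc25a39, Slc22a18 and Slc9a8 in each brain, null left and wild-type right, on linear axes from 0 (filled squares male, open circles female, bars mean ± SD, n = 5 and 6). In all 4 panels female and male null brains lie to the same side of the wild-type mean on average, and the groups overlap.

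The promoter windows of Slc44a1 and Slc25a39, the carriers with the smallest adjusted p values among these, are shown because both are dense in the GC box, the binding sequence of Sp1-type factors. Each is the stretch of 250 bases before an annotated start (RefSeq, GRCm38.p6), written 5′ to 3′ in the direction of the gene, with the GC box, GGGCGG or CCGCCC on the other strand, and the CCAAT box in capitals.
Slc44a1, chr4:53440163-53440412, plus strand: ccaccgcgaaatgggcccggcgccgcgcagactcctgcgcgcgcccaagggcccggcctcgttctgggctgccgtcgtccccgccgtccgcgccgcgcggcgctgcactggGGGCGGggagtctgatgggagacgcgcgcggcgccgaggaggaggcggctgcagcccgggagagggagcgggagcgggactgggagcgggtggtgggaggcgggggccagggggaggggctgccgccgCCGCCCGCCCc
Slc25a39, chr11:102407518-102407767, minus strand: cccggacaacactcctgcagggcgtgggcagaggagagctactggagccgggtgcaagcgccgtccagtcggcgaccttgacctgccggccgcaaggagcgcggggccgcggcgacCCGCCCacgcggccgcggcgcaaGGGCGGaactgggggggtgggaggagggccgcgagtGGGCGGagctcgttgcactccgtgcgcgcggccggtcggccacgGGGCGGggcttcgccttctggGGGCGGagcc
The Slc44a1 window, 1 of 2 annotated starts, holds 3 GC boxes, 2 of them overlapping, and 81.2% G or C, and the Slc25a39 window holds 5 GC boxes and 77.2% G or C. Neither holds a CCAAT box. Windows were found for 112 of the 134 carrier genes, 154 windows in all. A GC box stood in 57.8% of them, against 42.6% of the windows of protein-coding genes and 32.7% of all windows. The median share of G or C was 58.8% in the carrier windows, against 55.6% and 52.4%. CCAAT or its complement ATTGG stood in 29.9% of carrier windows (35.4% of protein-coding, 33.8% of all), and TATAAA in 6.49% (11.6% and 12.4%). The E-box CACGTG stood in 13%, against 6.63% and 6.02%, and the cyclic AMP response element TGACGTCA in 1.3%, against 1.92% and 1.55%. These are letter matches on both strands and say nothing of binding.

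Within males the genotype difference was far larger, and it is the one the male null brains define. In the model with the interaction of genotype and sex, 27 of 101 carriers (26.7%) passed in males, 19 higher and 8 lower, against 32.6% of all probe sets (17.8% higher, 14.8% lower). The split again moved with scaling, to 15 higher and 11 lower after quantile normalization and 9 and 18 after median centring. Both male null brains lay above the other 9 brains for 21 carriers (20.8%, against 20.7% of all probe sets) and below them for 8 (7.92%, against 16.5%). In females 0 of 101 passed, as did 0 of 7453, and 9 carriers (8.91%) lay below 0.05 before adjustment, against 4.13%. The male and female differences had the same sign for 44 carriers (43.6%), against 49.3% of all probe sets.

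The difference between the sexes itself was past the threshold for 14 of 101 carriers (13.9%), against 15.9% of all probe sets, so the carriers' share lay near the background. The female minus the male genotype difference was negative for 12 carriers and positive for 2, against 8.68% negative and 7.25% positive of all probe sets. The split was 9 and 4 after quantile normalization and 7 and 6 after median centring. With the Gapdh ratio as a covariate 0 carriers and 0 of 7453 probe sets passed this limma test, and 9 carriers and 659 probe sets lay below 0.05 before adjustment. The count was 7 without null 1, 8 without null 2, 8 without wild-type 5 and 8 within the B4 animals, a set of all 5 null and 3 wild-type mice named by the letters of their numbers. Of all 7453 probe sets, 8.72%, 6.19%, 6.7% and 8.64% passed in these 4 fits, in the same order. It was 11 to 15 without each of the other mice, where 11.4% to 18.9% of all probe sets passed. The 6 carriers that kept the call without each mouse in turn were Slc2a3, Slc25a5, Slc25a25, Slc25a44, Slc27a1 and Slc35c2.

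**Figure D3:**
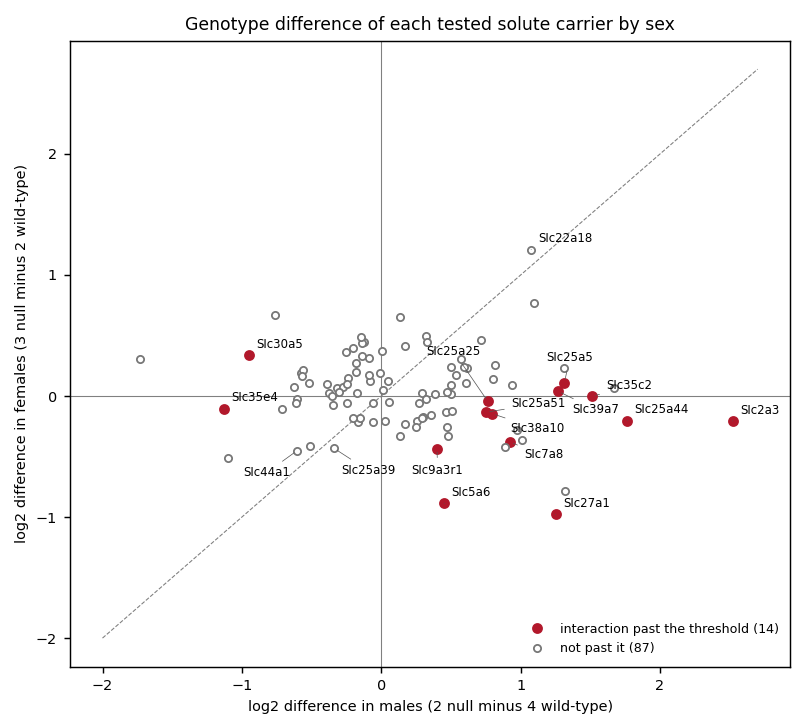
Log2 genotype difference (null minus wild-type) of each of the 101 tested carriers in males (horizontal, 2 null and 4 wild-type) and in females (vertical, 3 null and 2 wild-type), with the 14 interactions past the threshold filled. The filled points spread along the male axis, up to 2.52 for Slc2a3, while most female values stay near 0, and Slc22a18 lies near the dashed line of equal differences.

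Slc2a3, the glucose transporter of neurons, showed the largest interaction of genotype and sex among the 14. Its probe set 92292_at had signals of 130.9 and 168 in male null brains and 28.4, 26.9 and 33.6 in female null brains, against 20.8, 22.8, 31.9, 37.8, 36.3 and 24.9 in wild-type brains. Only the male null brains left the wild-type range. The log2 difference was 2.52 in males (limma adjusted p = 0.000102) and -0.21 in females, an interaction of -2.73 (SE 0.45, limma adjusted p = 0.00253). The second Slc2a3 probe set, 93804_at, gave 177.2, 165.4, 131.3, 116.8 and 143 in null brains, against 75.8, 139.9, 147.3, 161.7, 163.8 and 135.8 in wild-type brains, so the groups overlapped and its male difference was 0.47 (limma adjusted p = 0.176). The rise in males was thus not past the threshold on both probe sets of the gene.

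Among the mitochondrial carriers, Slc25a5 (100618_f_at), an ADP/ATP translocase on the X chromosome, had 427.1 and 416 in male null and 217.1, 180.4 and 196.2 in female null brains, against 153.3 to 185.6 (median 178.9) in wild-type brains. It rose in males by 1.31 on the log2 scale (limma adjusted p = 5.05e-05), against 0.11 in females (interaction -1.20, SE 0.21, limma adjusted p = 0.00355). The _f_at ending denotes a probe set shared with similar transcripts, and the second tested Slc25a5 probe set (100619_r_at) had a male difference of 0.53 (limma adjusted p = 0.188). Slc25a44 (160392_at), a carrier of branched-chain amino acids into mitochondria, had 145.3 and 174.2 in male null and 51.7, 46.8 and 45.5 in female null brains, against 35.3 to 60.9 in wild-type brains. Its difference was 1.76 in males (limma adjusted p = 0.00022) and -0.20 in females (interaction -1.97, SE 0.36, limma adjusted p = 0.00421). Slc25a25 (98569_at), which exchanges ATP-magnesium for phosphate, had 521.9 and 499.5 in male null and 346.6, 371.6 and 362.5 in female null brains, against 286.1 to 380.6 in wild-type brains (interaction -0.81, SE 0.18, limma adjusted p = 0.00949). Slc25a51 (97410_at), the mitochondrial carrier of NAD, had 242.1 and 262.3 in male null and 150.9 to 172.8 in female null brains, against 109.7 to 192.9 in wild-type brains. Its interaction of -0.89 (SE 0.28, limma adjusted p = 0.0497) kept its call in 2 of the 11 fits that left out a mouse. The second Slc25a51 probe set (161951_f_at) went the other way, with a male difference of -0.18 and an interaction of 0.38 (limma adjusted p = 0.511).

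**Figure D4:**
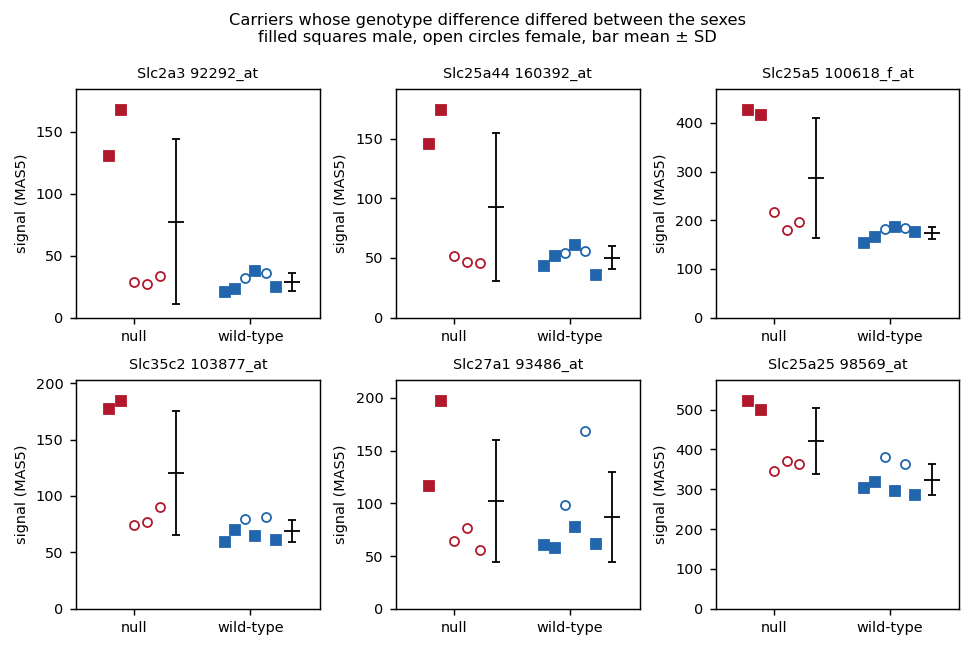
Signal of Slc2a3, Slc25a44, Slc25a5, Slc35c2, Slc27a1 and Slc25a25 in each brain, null left and wild-type right, on linear axes from 0 (filled squares male, open circles female, bars mean ± SD, n = 5 and 6). The 2 male null squares stand above all other points in 5 panels, and in the Slc27a1 panel 1 female wild-type brain (168.2) lies between them.

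Of the nucleotide sugar class, Slc35c2 (103877_at), a Golgi protein linked to fucosylation, had 176.9 and 184.4 in male null and 74.4, 77.2 and 90.2 in female null brains, against 58.8 to 81.5 in wild-type brains. It rose by 1.51 in males (limma adjusted p = 7.53e-05), and the female difference was -0.002 (interaction -1.52, SE 0.26, limma adjusted p = 0.0032). Slc35e4 (103527_at) was lower in male null brains, at 88.6 and 95.7, with 178.1, 212.9 and 199.6 in female null brains, against 183.2 to 243.2 in wild-type brains. Its male difference of -1.13 (limma adjusted p = 0.000241) and female difference of -0.10 gave an interaction of 1.02 (SE 0.23, limma adjusted p = 0.0112), a call lost without null 1.

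The upstream windows of Slc25a5, Slc35c2 and Slc35e4 are shown as examples of carriers on which the male null brains lay above (Slc25a5, Slc35c2) or below (Slc35e4) all others, in the same form (250 bases, GC and CCAAT boxes in capitals).
Slc25a5, chrX:36795347-36795596, plus strand: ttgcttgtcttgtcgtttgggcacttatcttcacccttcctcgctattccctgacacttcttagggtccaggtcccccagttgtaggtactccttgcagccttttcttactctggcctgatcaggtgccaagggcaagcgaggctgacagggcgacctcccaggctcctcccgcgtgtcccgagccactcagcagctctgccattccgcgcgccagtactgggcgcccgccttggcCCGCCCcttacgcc
Slc35c2, chr2:165287839-165288088, minus strand: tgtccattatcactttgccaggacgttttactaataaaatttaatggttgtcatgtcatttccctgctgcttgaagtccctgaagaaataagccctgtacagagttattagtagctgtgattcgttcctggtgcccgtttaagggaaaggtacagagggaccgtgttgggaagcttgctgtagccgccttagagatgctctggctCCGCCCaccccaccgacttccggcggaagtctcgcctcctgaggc
Slc35e4, chr11:3914665-3914914, minus strand: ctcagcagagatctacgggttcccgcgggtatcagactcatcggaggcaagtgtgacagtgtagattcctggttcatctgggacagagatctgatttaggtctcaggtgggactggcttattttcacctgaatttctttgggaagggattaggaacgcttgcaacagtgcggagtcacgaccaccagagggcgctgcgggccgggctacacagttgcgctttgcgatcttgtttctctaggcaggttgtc
Slc25a5 and Slc35c2, both higher in male null brains, hold 1 GC box each, with 61.6% and 50.4% G or C. The Slc35e4 window holds none, with 53.6% G or C. None of the 3 holds a CCAAT box, and the Slc35c2 window is 1 of 2 annotated starts.

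Slc27a1 (93486_at), a fatty acid transporter, had 116.4 and 197.3 in male null and 64.7, 77 and 56.2 in female null brains, against 60.1, 57.3, 98.8, 77.9, 168.2 and 61.4 in wild-type brains. The high wild-type values were those of the 2 females, wild-type 3 and wild-type 5. The differences of 1.25 in males (limma adjusted p = 0.0039) and -0.98 in females (limma adjusted p = 0.995) gave an interaction of -2.23 (SE 0.39, limma adjusted p = 0.00385), which was -1.96 within the B4 animals, a set without wild-type 5. Slc5a6 (104200_at), the sodium-dependent transporter of biotin and pantothenate, had 141 and 146.4 in male null and 83.4, 164.2 and 89.5 in female null brains, against 185.8 and 210.7 in female wild-type brains and 85.6 to 130.2 in male ones. The male null values lay inside the range of the other brains. The difference was 0.45 in males (limma adjusted p = 0.202) and -0.89 in females. Its interaction of -1.34 (SE 0.37, limma adjusted p = 0.0292) kept its call in 5 of the 11 fits that left out a mouse.

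Among metal carriers, Slc39a7 (103371_at), which releases zinc from the endoplasmic reticulum, had 365.5 and 335.6 in male null and 160.7, 238.4 and 199 in female null brains, against 119.7 to 196.2 in wild-type brains. It rose by 1.27 in males (limma adjusted p = 0.000446), against 0.04 in females (interaction -1.23, SE 0.29, limma adjusted p = 0.0128), a call lost without null 1. Slc30a5 (94470_i_at), a zinc transporter of the early secretory pathway, was lower in male null brains, at 54.9 and 57.9, with 81.8 to 89.6 in female null brains, against 113.1, 100.1, 93.1, 111.2, 50 and 110.4 in wild-type brains. The lone low wild-type value was that of wild-type 5. The interaction was 1.28 (SE 0.33, limma adjusted p = 0.0215) and lost its call without null 1, null 2 or wild-type 5. The second Slc30a5 probe set (94471_r_at) had a male difference of -0.57 (limma adjusted p = 0.115) and an interaction of 0.76 (limma adjusted p = 0.197), neither past the threshold.

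Among amino acid carriers, Slc38a10 (160414_at) had 193.4 and 252.3 in male null and 130.6, 166.3 and 183.7 in female null brains, against 109.4 to 182.6 in wild-type brains (interaction -0.94, SE 0.29, limma adjusted p = 0.0429). Slc7a8 (104214_at), the light chain of a neutral amino acid exchanger, had 66.6 and 90.9 in male null and 34 to 40.5 in female null brains, against 31.8 to 51.8 in wild-type brains (interaction -1.30, SE 0.40, limma adjusted p = 0.0418). Each of these calls held in only 2 of the 11 fits that left out a mouse. Slc9a3r1 (97243_at), a scaffold protein that binds sodium-proton exchangers and is no carrier itself, had 449.4 and 511.6 in male null and 410.7 to 460.6 in female null brains, against 331.4, 424.5, 539, 339.3, 643.2 and 365.6 in wild-type brains. Its high wild-type values were again those of the 2 females. Males differed by 0.40 and females by -0.43, and the interaction of -0.83 (SE 0.21, limma adjusted p = 0.0186) lost the call without null 2 or wild-type 5.

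The larger classes did not move as blocks. Over all brains the mitochondrial carriers held 11 positive and 9 negative differences, the metal class 10 and 9, and the amino acid class 8 and 4. In the adaptor (4 probe sets), monocarboxylate (3), peptide (3) and calcium and proton (2) classes each difference was positive, against 54% of all probe sets. The calcium and proton median was 0.23 (0.14 without the male null brains). None of the 20 tested mitochondrial carriers passed over all brains. Of these, 4 were higher and 1 lower at an unadjusted p under 0.05, and their median was 0.01, and 0.10 without the male null brains. Slc25a45 (161640_at) had the lowest difference of that class, -0.77, with 14 and 20.4 in male null and 23.8 to 48.5 in female null brains, against 14.4 to 70.2 in wild-type brains. Its sign turned, to 0.30, without the male null brains. Slc25a4 (93084_at), the main ADP/ATP translocase of brain and muscle, was steady at 2740 to 3297 in null and 2667 to 3143 in wild-type brains (difference 0.002, SE 0.10, and -0.05 without the male null brains).

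The 19 metal probe sets had a median of 0.03 (0.12 without the male null brains), with 2 higher and 1 lower at an unadjusted p under 0.05. Slc11a2, the main importer of iron from endosomes, had 2 tested probe sets. Its 104451_at gave 197.4, 217.8, 148.3, 189.3 and 247.2 in null brains, against 138.2 to 162.6 in wild-type brains, a difference of 0.38 (SE 0.15, limma adjusted p = 0.157), and its 102642_at a difference of 0.15 (SE 0.16). With the male null brains left out, these were 0.24 and 0.44. Slc31a1 (101877_at), the copper importer, had 121.2, 162.1, 171.9, 188.2 and 158 in null brains, against 170.2 to 268.6 in wild-type brains, a difference of -0.35 (limma adjusted p = 0.214) that was -0.06 without the male null brains. The second Slc31a1 probe set (103845_at) had -0.19 over all brains, and its sign turned, to 0.22, without the male null brains. Slc30a3 (102683_at), which loads zinc into synaptic vesicles, had 867.8 to 1073 in null and 763.7 to 1027 in wild-type brains, a difference of 0.09 (SE 0.12), and 0.12 without the male null brains.

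Amino acid carriers had a median of 0.17 over 12 probe sets, and -0.05 without the male null brains. None had an unadjusted p under 0.05. Slc7a2 (92736_at), a carrier of arginine and lysine, had the highest difference, 0.94 (SE 0.54; 0.77 without the male null brains), on signals of 10.2 to 67.2 in null and 5.8 to 45.5 in wild-type brains. Slc3a2 (99133_at), the heavy chain shared by several amino acid exchangers, had the lowest, -0.33 (SE 0.18), with 622.7 and 805.7 in male null and 787.9 to 1294 in female null brains, against 875.4 to 1336 in wild-type brains, and its difference was -0.02 without the male null brains. Its partner Slc7a5 (104221_at), the light chain that carries large neutral amino acids across the blood-brain barrier, had 229.9 to 396.7 in null and 266.5 to 425.9 in wild-type brains (-0.09, SE 0.17, and -0.33 without the male null brains). Slc1a4 (100943_at), which carries serine, had 247.1 to 424.8 in null and 225.3 to 375.2 in wild-type brains (0.18, SE 0.17). Slc1a6 (99845_at), the glutamate transporter of Purkinje cells, had 125.2 to 256.2 in null and 137 to 214.8 in wild-type brains (0.21, SE 0.20). Both signs turned when the male null brains were left out, to -0.13 for each.

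The bicarbonate and chloride class had a median of 0.29 over 6 probe sets, and 0.17 without the male null brains. Slc12a4 (92450_at), a potassium-chloride cotransporter, had 98.1, 123.8, 67.4, 74.6 and 57.7 in null brains, against 41.3 to 85.4 in wild-type brains (0.55, SE 0.22, limma adjusted p = 0.171), and the difference was 0.25 without the male null brains. Slc12a5 (100370_at), the cotransporter that keeps chloride low in mature neurons, had 46.6 to 175.1 in null and 35 to 185.7 in wild-type brains (0.45, SE 0.37, and 0.31 without the male null brains). Slc12a2 (99500_at), the sodium-potassium-chloride importer that is also prominent in the choroid plexus, had 607.7 and 629.5 in male null and 911.9, 1011 and 923.1 in female null brains, against 771.5 to 1187 in wild-type brains. It fell by 0.63 in males (limma adjusted p = 0.0128), and the female difference was 0.07, with an interaction of 0.70 that did not pass (limma adjusted p = 0.0706). Choroid plexus markers (4 named of 7, all past the filter, none at 0) summed to 1438 and 1521 in the male null brains, against 1929 to 2915 in the other 9, mostly Ttr and Igf2. The dimmer Kl had 57.8 to 122.7 in null and 66.7 to 117.7 in wild-type brains, and Folr1 21.6 to 91.7 and 11.3 to 57. The part of these markers in the Slc12a2 difference was not tested. Slc4a4 (98457_at), the sodium-bicarbonate cotransporter of astrocytes, had 99.9 to 132.1 in null and 67.5 to 109.7 in wild-type brains (0.28, SE 0.17, and 0.41 without the male null brains).

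**Figure D5:**
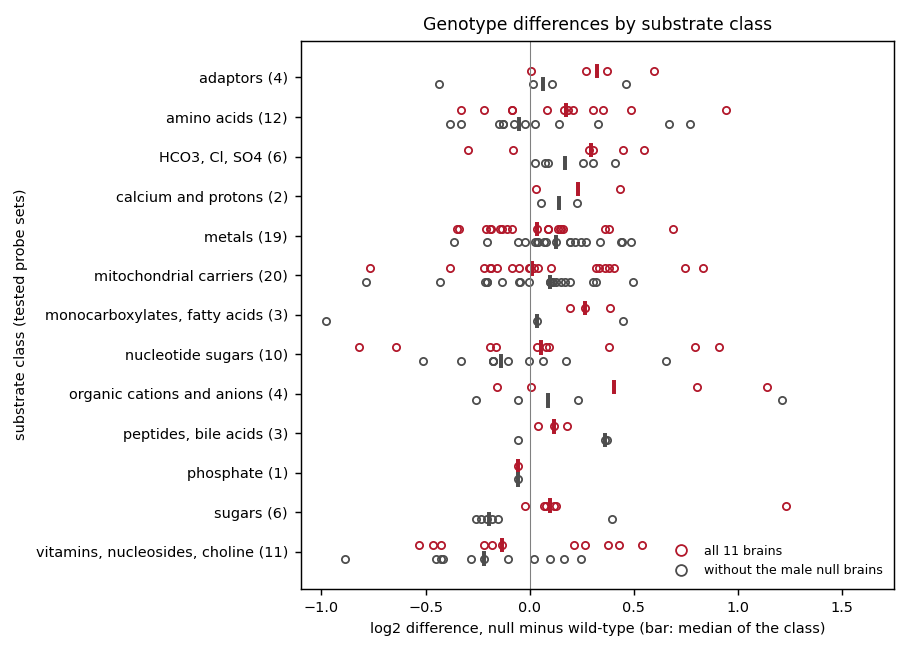
Log2 difference (null minus wild-type) of each tested carrier, in rows by substrate class with the number of probe sets, over all 11 brains (upper circles) and without the male null brains (lower circles), with bars at the class medians. Points lie on both sides of 0 in the larger classes, and the sugar, nucleotide sugar and amino acid medians change from above to below 0 without the male null brains.

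The sugar class held 6 tested probe sets with a median of 0.10, and -0.19 without the male null brains. Slc37a4 (97430_at), the glucose-6-phosphate carrier of the endoplasmic reticulum, had the lowest difference of the class, -0.02 (-0.23 without the male null brains). Among 10 nucleotide sugar probe sets the median was 0.06, and -0.14 when the male null brains were left out. Slc35e1 (104475_at) had 113.2, 140, 58.1, 55.7 and 31.2 in null brains, against 24.4 to 66.5 in wild-type brains (0.91, SE 0.38, limma adjusted p = 0.179), which was 0.06 without the male null brains, while its second probe set (161355_f_at) had -0.19 and -0.18. Slc35g3 (93386_at) had the lowest difference, -0.82 (SE 0.41; -0.51 without the male null brains), with 17.9 to 89.3 in null and 45.8 to 116.1 in wild-type brains. Of the organic ion class, with a median of 0.40 over 4 probe sets (0.09 without the male null brains), Slc22a12 (102429_at), known as a urate transporter of the kidney, had 88.2, 54.9, 81.7, 39.4 and 54.6 in null brains, against 23.6 to 58.2 in wild-type brains (0.80, SE 0.29, limma adjusted p = 0.14). That difference was 0.23 without the male null brains. Slc22a23 (160706_at) had the lowest, -0.16, and -0.06 without those brains.

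The 11 probe sets of vitamin, nucleoside and choline carriers had a median of -0.13 (-0.22 without the male null brains), and the choline family itself split. Slc44a1 had the lowest difference of the class, while Slc44a4 (96761_at) had 68.8 to 133.5 in null and 55.1 to 91.3 in wild-type brains (0.43, SE 0.18, limma adjusted p = 0.187), and Slc44a2 (99445_at) had the highest, 0.54 (SE 0.35). With the male null brains left out, these were 0.24 and 0.10. The 3 monocarboxylate and fatty acid probe sets had a median of 0.26 (0.03 without the male null brains). Slc16a8 (101623_at), a lactate transporter, was highest at 0.38 (SE 0.26), and 0.45 without those brains. Slc27a1 was lowest at 0.19, and its sign turned, to -0.98, without them. Peptide and bile acid carriers lay between Slc10a6 (93624_at) at 0.18 and the peptide importer Slc15a2 (103918_at) at 0.04, which were 0.37 and 0.36 without the male null brains (class medians 0.12 and 0.36). The phosphate importer Slc20a1 (103065_at), the only probe set of its class past the filter, had 454.7 to 543.5 in null and 460.3 to 597.4 in wild-type brains (-0.06, SE 0.11, and -0.06 without the male null brains). Slc8a1 (99524_at), the sodium-calcium exchanger, had 153.9 to 183.6 in null and 120.3 to 193.3 in wild-type brains (0.03, SE 0.14, and 0.05 without the male null brains). The 4 probe sets grouped as adaptors and other proteins, Slc66a2 among them, had a median of 0.32 (0.06 without the male null brains). Highest was Slc4a1ap (93396_at) with 58.8 to 87.5 in null and 31.4 to 74.2 in wild-type brains (0.60, SE 0.24, limma adjusted p = 0.174, and 0.46 without the male null brains).

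No carrier differed between the sexes past the threshold. With genotype as a covariate, 0 of 101 passed, as did 0 of 7453, and 10 (9.9%) lay below 0.05 before adjustment, 5 in each direction, against 12.4% of all probe sets (4.88% higher and 7.54% lower in females). Without the male null brains 14 carriers (13.9%) did, 9 higher and 5 lower in females, against 8.88% (4.96% and 3.92%). Slc12a5 had the lowest female minus male difference, with 35 to 58.2 in the 5 females, against 35.2 to 185.7 in the 6 males. Of the males only wild-type 2 lay in the female range. The means were 49.2 ± 8.98 (SD, n = 5) in females and 119.9 ± 60.1 (SD, n = 6) in males, a log2 difference of -1.22 (SE 0.37, limma adjusted p = 0.296). It was -1.09 with the male null brains left out. Lower in females by the rule were also Slc25a44 (-0.70), the Golgi UDP-galactose carrier Slc35a2 (93558_at, -0.65) and Slc16a8 (-0.63). Once the male null brains were left out, Slc25a44 turned to 0.24, while Slc35a2 was at -0.90 and Slc16a8 at -0.68. Higher in females were Slc44a1 (0.55), Slc35e4 (0.55), the 2-oxoglutarate carrier Slc25a11 (160295_at, 0.54) and the chloride-bicarbonate exchanger Slc4a3 (92987_at, 0.26). With those brains left out, Slc44a1 was at 0.48, Slc35e4 at 0.07 and Slc4a3 at 0.17. Slc25a11 averaged 507.3 ± 70 (SD, n = 5) in females and 362.4 ± 78.3 (SD, n = 6) in males, and its difference was 0.32 once the male null brains were left out. No carrier named for sex passed (limma adjusted p from 0.261 for Slc44a1 upward).

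Within the wild-type brains, carriers varied as much as the array as a whole, with a median SD of log2 signal of 0.284 for both. The steadiest were Slc11a2 (104451_at, SD 0.090), Slc25a4 (0.094) and Slc25a5 (100618_f_at, 0.107), and the most variable Slc7a2 (1.16), the amino acid exchanger subunit Slc3a1 (93304_at, 1.09) and Slc12a5 (1.03). Wild-type 5 was the highest of the 6 wild-type brains for 26 carriers (25.7%), against 18% of all probe sets, and the lowest for 19 (18.8%), against 19.7%.

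Where 11 genes had 2 tested probe sets, the genotype difference had the same sign on both for 7. The pairs given here were picked after their values were seen. Probe sets of Slc39a4 gave 0.13 and 0.15, and those of the citrate carrier Slc25a1 -0.19 and -0.19. Those of the folate carrier Slc19a1 disagreed, at -0.43 and 0.27, as did those of Slc23a3, at -0.47 and 0.21.

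By likeness of log2 signal over the 11 arrays, which share the split of the male null brains, Slc25a44 was closest to Slc2a3 (92292_at), with a Pearson correlation of 0.97, and to this Slc2a3 probe set Slc25a5 also stood at 0.97. Both values were 0.61 over the 9 brains without the male null ones. Other pairs changed less, over 11 and 9 arrays: Slc2a3 (93804_at) with the scaffold Slc9a3r2 at 0.87 and 0.86, Slc27a1 with Slc22a17 at 0.81 and 0.84, and Slc12a2 with Slc25a53 at 0.87 and 0.75. Slc7a5 with Slc23a3 stood at 0.79 and 0.82, and Slc30a3 with Slc20a1 at 0.66 and 0.75. Further pairs changed more, such as Slc25a4 with Slc2a3 (92292_at) at 0.17 and 0.84 and Slc1a6 with Slc39a6 at -0.14 and 0.65. Each partner was picked as the highest correlation among the carriers, over 11 or over 9 arrays, so high values were selected for. These correlations describe the arrays, with no test.

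The other 62 probe sets lay under the filter and were not tested, and 44 genes had no tested probe set. Among these genes no single brain had a signal above 68.6, and 25 of their 49 probe sets had no value at or under the floor of 3.1. Carriers known from kidney, gut and liver were here: the intestinal glucose importer Slc5a1 had 6.4 to 15.9 in null and 1.8 to 24.6 in wild-type brains, and the bile acid importer Slc10a1 (100339_at) 5.3 to 23.8 and 3.5 to 22.1. Brain carriers were here too, namely the lactate transporters Slc16a1 (20.6 to 24 in null and 2.2 to 34.1 in wild-type brains) and Slc16a7 (11.5 to 22.4 and 2.6 to 18.5) and the carnitine importer Slc22a5 (19.6 to 45.8 and 12.8 to 28.4). Slc4a1, the anion exchanger of red cells, had 9.3 to 29.1 in null and 9.8 to 26.5 in wild-type brains. Of 25 brain landmarks listed, 15 were tested, and 7, among them Slc1a3, Slc17a6, Slc17a7 and Slc40a1, have no probe set named for them in the annotation used.

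Other genes of membrane transport were listed beside the carriers. There were 42 tested probe sets of ATP-binding cassette transporters, aquaporins, carbonic anhydrases, Slco genes (2 probe sets) and carrier partners. Of these, 0 passed the genotype test over all brains. Before adjustment 9 positive and 0 negative differences lay below 0.05 (13.4% higher and 9.69% lower of all probe sets). The median was 0.12 (0.03 without the male null brains). The interaction of genotype and sex passed for 11 of the 42, against 15.9% of all probe sets. The transferrin receptor Tfrc (103958_g_at), which delivers iron to the endosomes where Slc11a2 acts, had 830.3 and 916.9 in male null and 289 to 313.4 in female null brains, against 151.9 to 357 in wild-type brains (1.26, SE 0.24, limma adjusted p = 0.0773, and 0.63 without the male null brains). Bsg (101078_at), the chaperone of lactate transporters, had 1435 and 1334 in male null and 449.9 to 629.2 in female null brains, against 407.4 to 754 in wild-type brains (0.75, SE 0.28, limma adjusted p = 0.148, and -0.10 without those brains). Abca2 (104137_at), a lipid transporter of myelinating cells, had 251.1 to 544.8 in null and 168 to 218.7 in wild-type brains (1.01, SE 0.18, limma adjusted p = 0.0773, and 0.50 without the male null brains). Its groups did not overlap, a pattern with null above wild-type in 0.59% of all probe sets. Tfrc, Bsg and Abca2 are examples picked by no set rule. Other partners were lower in male null brains, among them Mt2 (male difference -0.99) and Mt1 (-0.83).

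The tested carriers on chromosome 9 with Chrnb4 were Slc25a20, Slc25a36, Slc37a4 and Slc44a2, none within 100 genes of it. Slc25a20, the carnitine-acylcarnitine carrier, 474 genes away, was named here after its values were seen: its log2 difference was 0.40 over all brains and 0.50 without the male null brains, not past the threshold in either.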

How the data were processed

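Whole-brain RNA of 11 mice was hybridised to 1 Affymetrix array each, 5 null and 6 wild-type. The deposited intensities, on a linear scale, were made by the authors with MAS5, per the submitters' processing notes, and its settings are not given in the sources used here. They were raised to a floor of 3.1, the 10th percentile, put on the log2 scale and filtered at the 40th percentile of mean log2 signal (25.8 as signal), with no further normalization. limma 3.58.1 in R 4.3.3 was fitted on all 7453 probe sets passing, with empirical Bayes moderation with trend, and p-values were adjusted over all of them (Benjamini-Hochberg, 0.05). Genotype was fitted with sex as a covariate, sex with genotype, and their interaction separately. Of all probe sets, 10855 had 1 gene symbol, 396 several and 1237 none, and all 163 carriers matched the RefSeq gene table. The fit was checked on simulated data. Named carriers were the 12 largest differences per direction below 0.05 before adjustment, the class extremes, the interactions past the threshold, 4 per direction for sex, and listed landmarks. Members and lists were chosen with earlier results of these data known. Each array is 1 mouse. Alternatives included 2 normalizations, floors, filters, covariates and leaving out each mouse.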

Additional observations from a re-analysis of the deposited data

Results flagged for a closer look

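Among 116 groups of named carriers checked by gene and genotype, 9 held a brain far from the rest of its group. The nominal rate of the rule used is about 1 in 20, and its rate in these data was not measured. Null 3 had a signal of 21.1 for Slc8a1 (93168_at), against 13.3 to 15.5 in the other null brains, and 1073 for Slc30a3 (102683_at), against 867.8 to 918.4. Null 2 had 183.6 for Slc8a1 (99524_at), against 153.9 to 161.1. For the dim Slc30a3 probe set 161395_i_at, null 5 had 18.4, against 1.9 to 2.6, and wild-type 4 had 6.8, against 0.9 to 2.3 in the other wild-type brains. Wild-type 5 had 168.2 for Slc27a1, against 57.3 to 98.8, and 50 for Slc30a5 (94470_i_at), against 93.1 to 113.1. Wild-type 1 had 75.8 for Slc2a3 (93804_at), against 135.8 to 163.8. Wild-type 6 had 608.2 for Slc4a3 (92987_at), against 777.8 to 878.2.

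For 14 carriers the genotype difference differed between the sexes by the interaction term of the limma fit, as female minus male log2 difference. The negative ones were -2.73 for Slc2a3, -2.23 for Slc27a1, -1.97 for Slc25a44, -1.52 for Slc35c2, -1.34 for Slc5a6, -1.30 for Slc7a8, -1.23 for Slc39a7, -1.20 for Slc25a5, -0.94 for Slc38a10, -0.89 for Slc25a51, -0.83 for Slc9a3r1 and -0.81 for Slc25a25. The positive ones were 1.28 for Slc30a5 and 1.02 for Slc35e4. The 2 male null brains enter each of these, and their Gapdh ratios of 3′ to 5′ signal, the lowest of all arrays, were 0.859 and 0.798. For Slc5a6 the male difference was 0.45 and the female one -0.89.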

How the results depend on the processing

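The genotype count over all probe sets, 2 in the fit as reported, was 1 after quantile normalization, after median centring, with a filter at the 60th percentile and with no covariate. It was 0 with no signal filter, with age or with the Gapdh ratio as a covariate, without the male null brains and in females only, and 26 within the B4 animals. With age as a covariate, 12 carriers and 847 probe sets lay below 0.05 before adjustment, against 20 and 1724 in the fit as reported. Leaving out each mouse gave 1 to 877 for all probe sets and 0 to 12 for the carriers. The count of carrier interactions, 14, was 0 with the Gapdh ratio as a covariate, 8 within the B4 animals and 7 to 15 with each mouse left out. The median carrier difference, 0.0863, was -0.0936 after median centring. The cause of these shifts was not tested. Of 42 named probe sets, the sign of the genotype difference turned for 22 under at least 1 alternative and held for 20, while the 14 interactions kept their sign under every alternative run. No paired analysis was possible because the replicate numbers only follow sample order and the labels pair no mice. Carriers under the signal filter were not tested, so nothing is said of their differences.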
